A study of Mus with 2 samples.

Results

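The Slc15 peptide and histidine transporters Slc15a2, Slc15a3 and Slc15a4 were followed through the cell types of mouse hindlimb bone marrow. They were taken by gene symbol and are 3 of the 32285 genes in the deposited features and 3 of the 5 genes there with an Slc15 symbol. They were selected on their UMI levels by class and group, seen in these data before, so their levels and differences are given as a description with no test. The study compared marrow of ground mice with marrow of running mice by droplet-based 3′ single-cell RNA sequencing. Each group was 1 library. The labels give no strain, age, number of mice per library or running schedule, and they do not say what ground stands for beyond its contrast with running. Without a second library per group there was no test of any difference, and the 95% intervals below cover counting error only.

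SLC15 proteins use the inward proton gradient to carry small peptides across a membrane. SLC15A2, also called PEPT2, sits at the plasma membrane and takes up di- and tripeptides and bacterial fragments such as muramyl dipeptide. SLC15A3 (PHT2) and SLC15A4 (PHT1) sit on endosomes and lysosomes, move histidine and peptides out of the lumen, and are known in immune cells for their part in NOD signalling and, for SLC15A4, in signalling by the endosomal Toll-like receptors. On the mm10 build (GRCm38.p6 coordinates from RefSeq, whole gene spans) Slc15a2 lies on chromosome 16 from 36750161 to 36785158, Slc15a3 on chromosome 19 from 10842544 to 10857915, and Slc15a4 on chromosome 5 from 127594545 to 127633292. The family members left aside were nearly undetected: Slc15a1, the intestinal peptide transporter, had 0 UMIs in ground and 1 in running, and Slc15a5 had 0 in both. A UMI is a tag that marks 1 captured transcript molecule.

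Filters left 8666 cells of ground and 9080 of running, in which the median cell had 5938 and 5145.5 UMIs. The deposited matrices held 85014860 and 79990530 UMIs in all, and 22 cell barcodes occurred in both libraries. The cells formed 35 clusters, numbered from 0, which were named from marker genes into 17 classes. The 3 transporters were left out of the genes used for clustering. Mature neutrophil-like cluster 4 was mostly ground (1111 ground and 60 running cells) and cluster 26 mostly running (99 and 998 cells), so that this class is held by different clusters in the libraries. Macrophage-like cells had shallow profiles (median depth 758 and 846 UMIs), and small B cell-like cluster 22 (13 and 41 cells) also carried neutrophil transcripts.

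Over all cells Slc15a2 was the transporter that differed most between the libraries. It had 270 UMIs in ground and 893 in running, or 3.29 and 11.4 CPM, the unit of UMIs scaled to the library's total. Running was 3.46 times as high, a log2 ratio of 1.79 (95% interval 1.59 to 1.99). Slc15a3 had 2935 and 3524 UMIs, or 35.7 and 44.9 CPM, and its log2 ratio was 0.33 (0.26 to 0.40). Slc15a4 had 1787 and 1910 UMIs, or 21.8 and 24.4 CPM, with a log2 ratio of 0.16 (0.07 to 0.26). Levels were thus higher in the running library for each of the 3, by a wide margin for Slc15a2 and by little for the others. With a difference called when it reached 1.5-fold at 50 or more UMIs, 1 of the 3 was called higher and 0 lower. Of 13738 genes with as many UMIs, 6.53% were called higher and 1.87% lower, and their median log2 ratio was 0.08. A log2 ratio as high as that of Slc15a2 was seen in 83 of the 13738 genes (0.604%), Slc15a2 included. Ratios as high as those of Slc15a3 and Slc15a4 were seen in 14.8% and 31.7% of these genes. When each class was weighted by its ground share of the UMIs in both libraries, the log2 ratios were 1.61, 0.32 and 0.13 for Slc15a2, Slc15a3 and Slc15a4.

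Detection per cell was sparse. Slc15a2 was seen in 230 ground cells (2.65%) and 723 running cells (7.96%). Slc15a3 was seen in 23.7% and 26.9% of cells, and Slc15a4 in 15.4% and 15.7%. The highest count in any ground cell was 6 for Slc15a2 and 7 for the other two. Of the 723 running cells with Slc15a2, 582 had a single UMI, as had 197 of the 230 ground cells. After each cell was thinned to 1000 UMIs, which left out 341 ground and 316 running cells, the shares for Slc15a2 were 0.589% and 1.76%, those for Slc15a3 5.65% and 7.14%, and those for Slc15a4 2.31% and 2.68%. The running share remained the higher for each transporter at equal depth, but for Slc15a4 the intervals overlapped (1.99% to 2.65% and 2.35% to 3.04%).

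**Figure D1:**
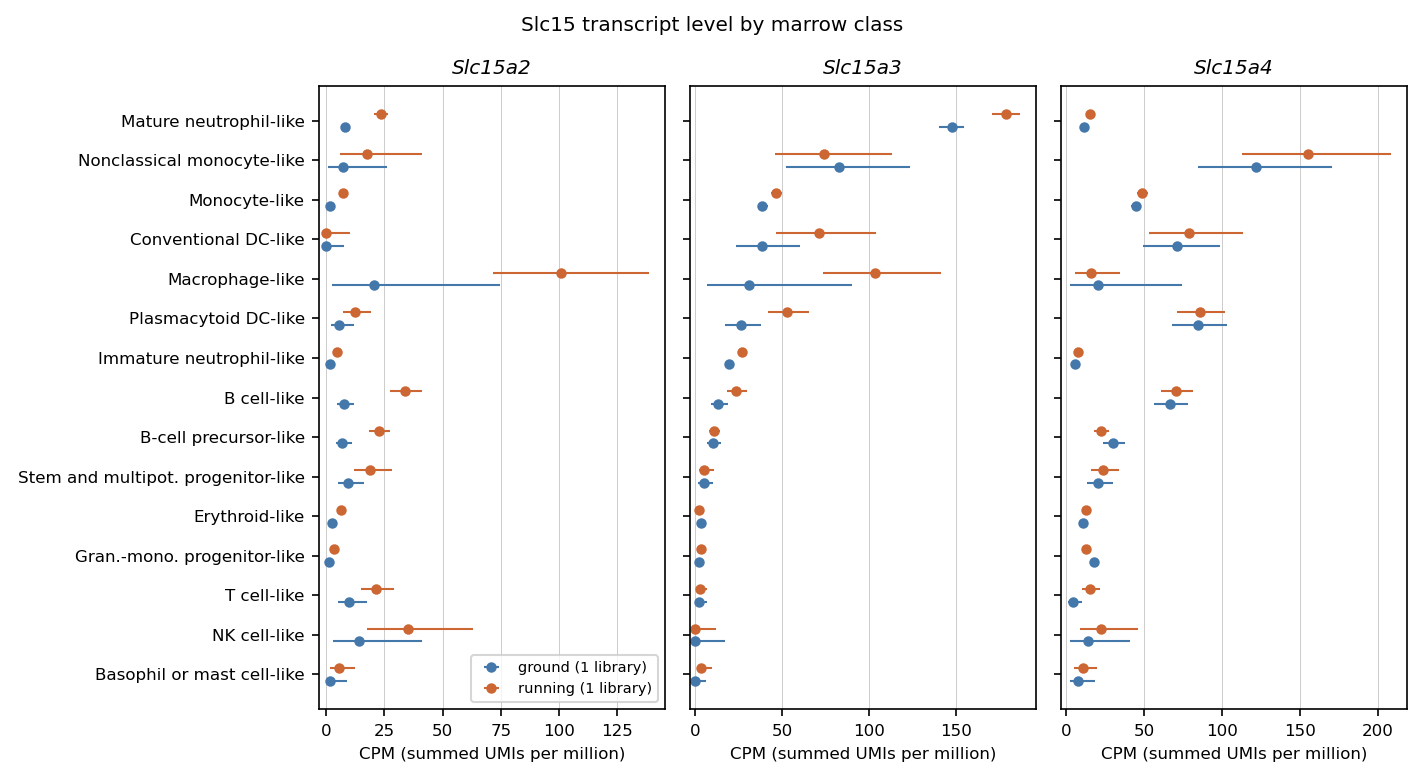
Level of each transporter (CPM from summed UMIs) by class of ground and running cells, with exact 95% Poisson intervals for counting error. The small plasma cell-like and mesenchymal stromal-like classes are not drawn. Slc15a3 stood highest in mature neutrophil-like cells (147 and 179 CPM), Slc15a4 in nonclassical monocyte-like cells (122 and 155 CPM), and Slc15a2 in running macrophage-like cells (101 CPM).

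Slc15a2, the cell-surface peptide transporter, was found at low levels across the marrow. In ground, the largest part of its UMIs came from mature neutrophil-like cells, with 87 of 270 UMIs (32.2%), and the same class gave 257 of 893 in running (28.8%). Levels in that class were 7.99 and 23.4 CPM. In immature neutrophil-like cells there were 38 and 82 UMIs (1.70 and 4.62 CPM). Monocyte-like cells had 32 and 117 UMIs (1.76 and 7.36 CPM), and granulocyte-monocyte progenitor-like cells 8 and 20 (0.970 and 3.24 CPM). Within the granulocyte series the level was therefore lowest in progenitor-like and immature cells and higher in mature cells, in both libraries.

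Among lymphoid cells, B cell-like cells had 18 Slc15a2 UMIs in ground and 93 in running (7.64 and 33.7 CPM). B-cell precursor-like cells had 18 and 99 (6.95 and 22.6 CPM), and T cell-like cells 11 and 38 (9.68 and 21.3 CPM). NK cell-like cells, with 45 and 58 cells, had 3 and 11 UMIs. Stem and multipotent progenitor-like cells had 12 and 23 UMIs (9.39 and 18.7 CPM), and plasmacytoid dendritic cell-like cells 6 and 18 (5.56 and 12.1 CPM). The Poisson intervals of these 6 ground levels overlapped one another, so the classes had no order in ground beyond counting error. No Slc15a2 UMI was found in conventional dendritic cell-like cells (0 of 55 and 0 of 45 cells, which allows shares of cells with a UMI, not of cells that express the gene, of up to 5.45% and 6.67%) or in mesenchymal stromal-like cells (0 of 20 and 0 of 28 cells, up to 15% and 10.7%).

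The highest Slc15a2 level of any class was in the macrophage-like cells of the running library, at 38 UMIs or 101 CPM (71.4 to 138), against 2 UMIs or 20.6 CPM (2.50 to 74.4) in ground. The 38 UMIs lay in 22 of 191 cells (11.5%), and at 1000 UMIs per cell the share was 18.1%, over the 72 cells that were deep enough. Markers of this class, such as C1qa and C1qc of the complement cascade and the mannose receptor gene Mrc1, were detected for 16 of 16 in both libraries. These cells also carried neutrophil RNA: the 21 mature neutrophil markers summed to 45031 CPM in ground, with Clec4d at 0, and to 78300 CPM in running, with none at 0. The part of that RNA in the Slc15a2 and Slc15a3 counts of these cells was not tested.

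Within classes, the running level of Slc15a2 was the higher in 11 of 11 classes that held at least 50 cells per library and at least 20 of its UMIs. The UMIs were summed over both libraries. A class could thus enter through its running count alone, as macrophage-like cells did with 2 and 38 UMIs. The log2 ratio ran from 0.996 in stem and multipotent progenitor-like cells (interval −0.07 to 2.14) to 2.29 in macrophage-like cells (0.34 to 5.39), with a median of 1.55, and its interval lay above 0 in 9 classes. In the stem and multipotent progenitor-like class 1 ground cell held 6 of the 12 ground UMIs. The ratio of that class ranged from 0.78 to 1.88 under the alternatives. Plasmacytoid dendritic cell-like cells were at 1.13 (−0.27 to 2.75), T cell-like cells at 1.14 (0.14 to 2.25) and granulocyte-monocyte progenitor-like cells at 1.74 (0.50 to 3.13). All 6 classes with 50 or more Slc15a2 UMIs passed 1.5-fold. These were B cell-like (2.14, 1.40 to 2.96), monocyte-like (2.06, 1.49 to 2.68), B-cell precursor-like (1.70, 0.97 to 2.52), mature neutrophil-like (1.55, 1.19 to 1.92), immature neutrophil-like (1.44, 0.87 to 2.04) and erythroid-like cells (1.42, 0.78 to 2.11). Of all genes measured in the class, 4.11% were called higher and 3.25% lower in B cell-like cells, 3.75% and 2.9% in monocyte-like, and 2.62% and 5.44% in B-cell precursor-like cells. The same shares were 8.73% and 4.58% for mature neutrophil-like cells, 4.73% and 1.48% for immature ones and 5.79% and 2.87% for erythroid-like cells. The intervals of the classes overlapped, and whether the ratio differs between classes was not tested.

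**Figure D2:**
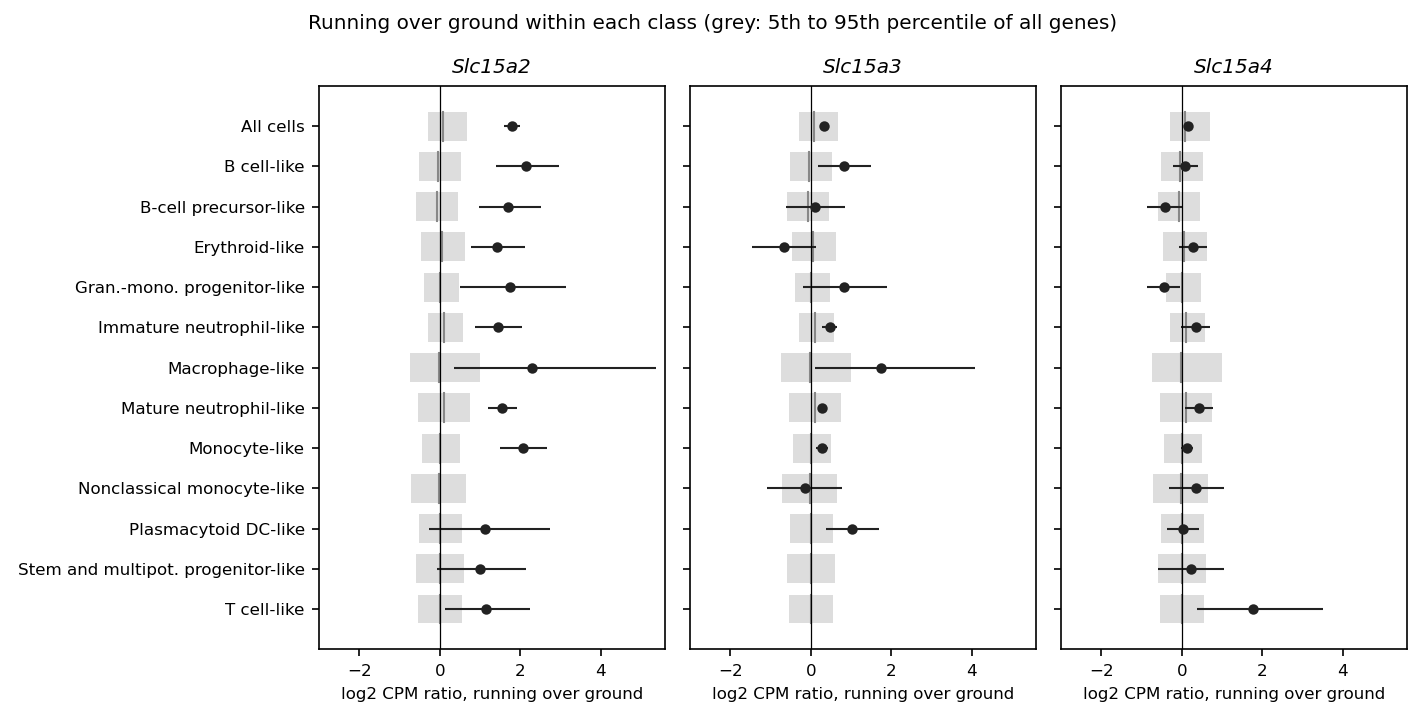
Log2 ratio of CPM, running over ground, of each transporter within each class (points, with exact 95% intervals for counting error). Grey bars span the 5th to the 95th percentile of all genes with at least 50 UMIs in the class. Slc15a2 points lie between 0.996 and 2.29, whereas those of Slc15a3 run from −0.67 to 1.74 and those of Slc15a4 from −0.45 to 1.78.

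Single clusters gave the same direction for Slc15a2: its level was higher in running in 21 of 21 clusters that passed the same filter on summed UMIs, with an interval above 0 in 16. In the 5 mature neutrophil-like clusters the UMIs in ground and running were 9 and 62 in cluster 2, 8 and 46 in cluster 3, 50 and 9 in cluster 4, 17 and 40 in cluster 6, and 3 and 100 in cluster 26. The log2 ratios of their CPM were 2.52, 1.78, 1.98, 1.21 and 2.17, so the difference was present within clusters that were mostly ground, mostly running or shared. The lowest ratio was 0.57 (−0.76 to 2.07), in erythroid-like cluster 20, whose median depth was 7075 UMIs in ground and 36120.5 in running.

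Free RNA in droplets bears on a transcript this sparse. Erythroid-like cells, in which little Slc15a2 was expected, had 27 and 82 UMIs, or 2.35 and 6.30 CPM, in 3.84% and 11.5% of cells at median depths of 9310 and 19356 UMIs. Mature neutrophil-like cells had it in 3.0% and 6.96% of cells at depths of 4038 and 3444. At 1000 UMIs per cell, the shares were 0.193% and 0.939% in erythroid-like cells, 0.923% and 2.07% in mature neutrophil-like cells and 0.454% and 2.82% in B cell-like cells. They were 0.325% and 0.952% in monocyte-like cells, close to the erythroid-like shares. At this depth the Slc15a2 shares of monocyte-like, immature neutrophil-like and granulocyte-monocyte progenitor-like cells cannot be told apart from a background of that size. The same holds for mature neutrophil-like, B cell-like, B-cell precursor-like, T cell-like and plasmacytoid dendritic cell-like cells. Their intervals overlapped the erythroid-like ones in both libraries (0.0049% to 1.07% in ground and 0.256% to 2.39% in running). Running macrophage-like cells, at 9.98% to 28.9%, lay above the erythroid-like interval. In UMIs per cell, the class means in running ranged from 0 in conventional dendritic cell-like cells to 0.0452 in immature neutrophil-like, 0.0852 in mature neutrophil-like, 0.178 in B-cell precursor-like and 0.329 in stem and multipotent progenitor-like cells. Erythroid-like cells, with 82 UMIs in 505 running cells, had a higher mean than mature neutrophil-like cells. How far the erythroid-like counts are free RNA was not tested. The part of free RNA in the ratios was not tested.

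The Slc15a2 ratio was seldom matched across classes. Of 6462 genes that could be compared in at least 11 classes, 6 (0.0929%) were at least 1.5-fold higher in running in every class compared, a criterion set after the values of Slc15a2 were seen. They were Slc15a2, Isg15 (a ubiquitin-like interferon-induced protein), Rtp4, Zbp1 (a sensor of Z-form nucleic acid), Gm47283 and Gm43305. Their lowest log2 ratios over the classes were 0.996 for Slc15a2, 0.75 for Isg15, 0.59 for Rtp4, 0.66 for Zbp1, 2.18 for Gm47283 and 0.75 for Gm43305. Genes higher in running in every class by any amount numbered 45 (0.696%).

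Slc15a3, the endolysosomal transporter PHT2, was foremost a transcript of mature neutrophil-like cells. Of its UMIs, 1605 of 2935 (54.7%) in ground and 1963 of 3524 (55.7%) in running came from these cells, although they contributed 13.3% and 14.0% of all UMIs. The level was 147 CPM in ground (140 to 155) and 179 CPM in running (171 to 187), and 44.2% and 44.6% of the cells had a UMI. The log2 ratio was 0.28 (0.18 to 0.37). At greater depth, 4.36% and 3.96% of erythroid-like cells had one. At 1000 UMIs per cell, Slc15a3 was found in 13% and 15.5% of mature neutrophil-like cells and in 0.580% and 0% of erythroid-like cells, where 0 of 426 running cells had a UMI.

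**Figure D3:**
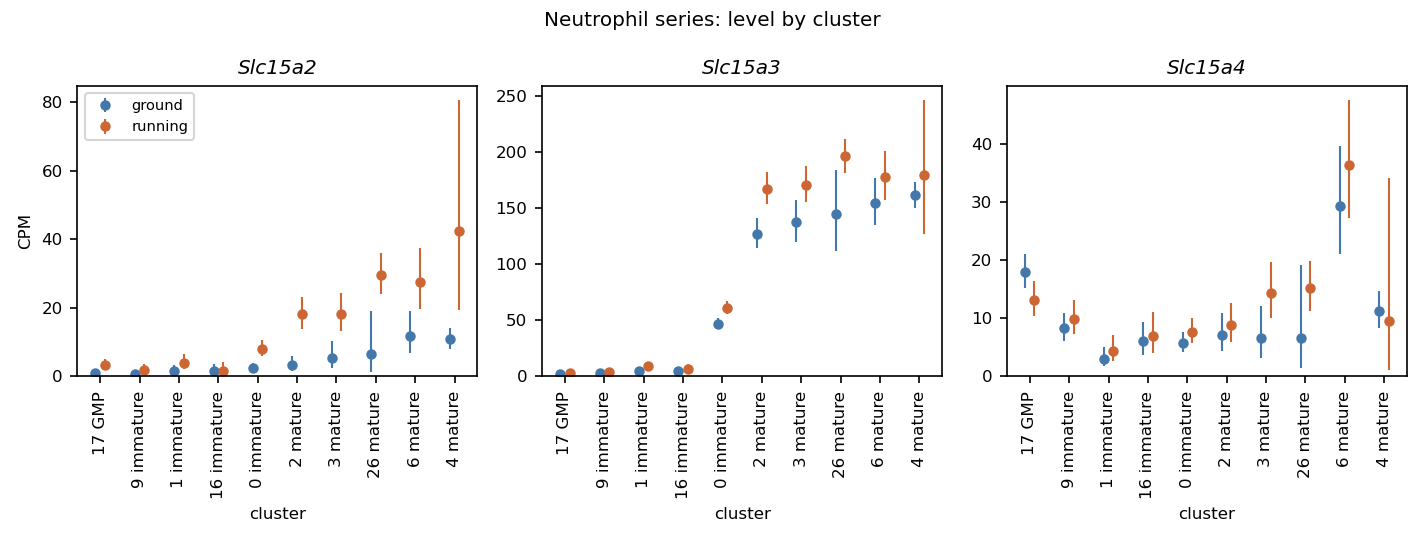
Level of each transporter (CPM, exact 95% Poisson intervals) in the clusters of the neutrophil series, from granulocyte-monocyte progenitor-like (GMP) to immature and mature neutrophil-like, ordered within each class by Slc15a3 in ground. Slc15a3 stood below 10 CPM in the 4 clusters at the left and above 120 CPM in the 5 mature clusters, while Slc15a4 reached its highest level in mature cluster 6 (29.2 and 36.4 CPM).

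Along the neutrophil series Slc15a3 passed from almost no signal to its highest level. In progenitor-like cluster 17 it stood at 1.82 CPM in ground and 3.24 in running. In immature clusters 9, 1 and 16, led by granule genes such as Camp and Ngp, it stood at 2.52, 4.68 and 4.81 CPM in ground and at 4.0, 9.32 and 6.53 in running. Immature cluster 0, whose leading genes include Ltf and Mmp8, had 46.6 and 60.8 CPM. The mature clusters 2, 3, 26, 6 and 4 stood in ground at 127, 137, 144, 155 and 161 CPM, and in running at 167, 171, 196, 178 and 180 CPM. The order of these 5 is the order of their ground values, and intervals of neighbouring clusters overlapped. Running was higher in each of the 10 clusters, with log2 ratios within the mature clusters from 0.15 in cluster 4 (−0.36 to 0.62) to 0.44 in cluster 26 (0.08 to 0.83).

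Myeloid cells outside the neutrophil series held most of the remaining Slc15a3. Monocyte-like cells had 701 and 741 UMIs (38.5 and 46.6 CPM), with a log2 ratio of 0.27 (0.12 to 0.43). Nonclassical monocyte-like cells had 23 and 21 UMIs (82.4 and 74.0 CPM), a log2 ratio of −0.16 (−1.08 to 0.76). Conventional dendritic cell-like cells had 19 and 26 UMIs (38.5 and 70.9 CPM) in 55 and 45 cells, with overlapping Poisson intervals. Running macrophage-like cells had 39 UMIs (104 CPM) against 3 (30.9 CPM) in ground, a log2 ratio of 1.74 (0.09 to 4.08). The 21 mature neutrophil markers, each detected, summed to 13450 and 12336 CPM in monocyte-like cells, beside 349005 and 329944 CPM in mature neutrophil-like cells.

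Plasmacytoid dendritic cell-like cells, the marrow's specialised interferon producers, also differed between the libraries in Slc15a3. They had 28 UMIs in 154 ground cells (25.9 CPM) and 78 UMIs in 194 running cells (52.6 CPM), a log2 ratio of 1.02 (0.38 to 1.70). A UMI was found in 14.9% of the ground cells and 29.9% of the running cells. The neutrophil markers summed to 6154 CPM in ground, with 21 of 21 detected, and 8017 CPM in running, with Il1r2 at 0, and their part in the difference was not tested. This was a called difference, in a class where 4.2% of genes were called higher and 3.45% lower, and 50 of 6137 genes (0.815%) had a ratio as high. At 1000 UMIs per cell the shares were 1.96% and 4.64%, from 3 and 9 cells, and their intervals overlapped.

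The other called differences of Slc15a3 were in B cell-like and erythroid-like cells. B cell-like cells had 31 and 64 UMIs (13.2 and 23.2 CPM), a log2 ratio of 0.82 (0.18 to 1.49), but 6 and 39 of these UMIs lay in cluster 22. Without that cluster, an alternative added after the values were seen, the log2 ratio was −0.089. The neutrophil markers summed to 10277 CPM in ground and 24037 CPM in running B cell-like cells, 21 of 21 being detected in both, and their part in the ratio was not tested. Erythroid-like cells had 35 and 25 UMIs (3.05 and 1.92 CPM), a log2 ratio of −0.67 (−1.47 to 0.12), in a class where 2.87% of genes were called lower. In these cells the neutrophil markers, 21 of 21 detected, summed to 11230 and 7043 CPM, and median depth was 9310 and 19356 UMIs. The part of either in the ratio was not tested. Slc15a3 thus passed the fold in 3 of 7 classes with 50 or more of its UMIs, and 0.27 to 0.47 was its range in the monocyte-like, mature and immature neutrophil-like cells that held most of them. T cell-like cells had 2 and 5 UMIs, and NK cell-like cells 0 and 0.

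Slc15a4, the transporter PHT1 of endosomes and lysosomes, had another distribution. Nonclassical monocyte-like cells stood highest, with 34 and 44 UMIs or 122 CPM in ground (84.4 to 170) and 155 CPM in running (113 to 208). Plasmacytoid dendritic cell-like cells had 91 and 127 UMIs (84.3 and 85.6 CPM), conventional dendritic cell-like cells 35 and 29 (70.9 and 79.0 CPM), and B cell-like cells 157 and 195 (66.7 and 70.7 CPM). The intervals of these 3 classes overlapped in each library, and in ground they also overlapped the interval of nonclassical monocyte-like cells for both dendritic classes. Monocyte-like cells followed with 816 and 776 UMIs (44.8 and 48.8 CPM). They held 45.7% and 40.6% of all Slc15a4 UMIs.

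Levels were lower in the remaining classes. B-cell precursor-like cells had 78 and 98 Slc15a4 UMIs (30.1 and 22.4 CPM), stem and multipotent progenitor-like cells 26 and 29 (20.4 and 23.6 CPM) and granulocyte-monocyte progenitor-like cells 148 and 81 (17.9 and 13.1 CPM). Mature neutrophil-like cells had 127 and 172 UMIs (11.7 and 15.6 CPM) and immature neutrophil-like cells 131 and 132 (5.84 and 7.43 CPM). Mature neutrophil-like cells, the main holders of Slc15a3, gave 7.11% and 9.01% of the Slc15a4 UMIs. Within that class cluster 6, led by Il1b and Ptgs2, had 29.2 and 36.4 CPM, whereas the other 4 mature clusters had between 6.56 and 11.2 CPM in ground and between 8.79 and 15.1 CPM in running. Erythroid-like cells had 123 and 169 UMIs (10.7 and 13 CPM). At 1000 UMIs per cell, Slc15a4 was found in 11.5% and 14.8% of nonclassical monocyte-like, 5.88% and 8.76% of plasmacytoid dendritic cell-like and 4.79% and 4.68% of monocyte-like cells, against 0.580% and 0.469% of erythroid-like cells.

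**Figure D4:**
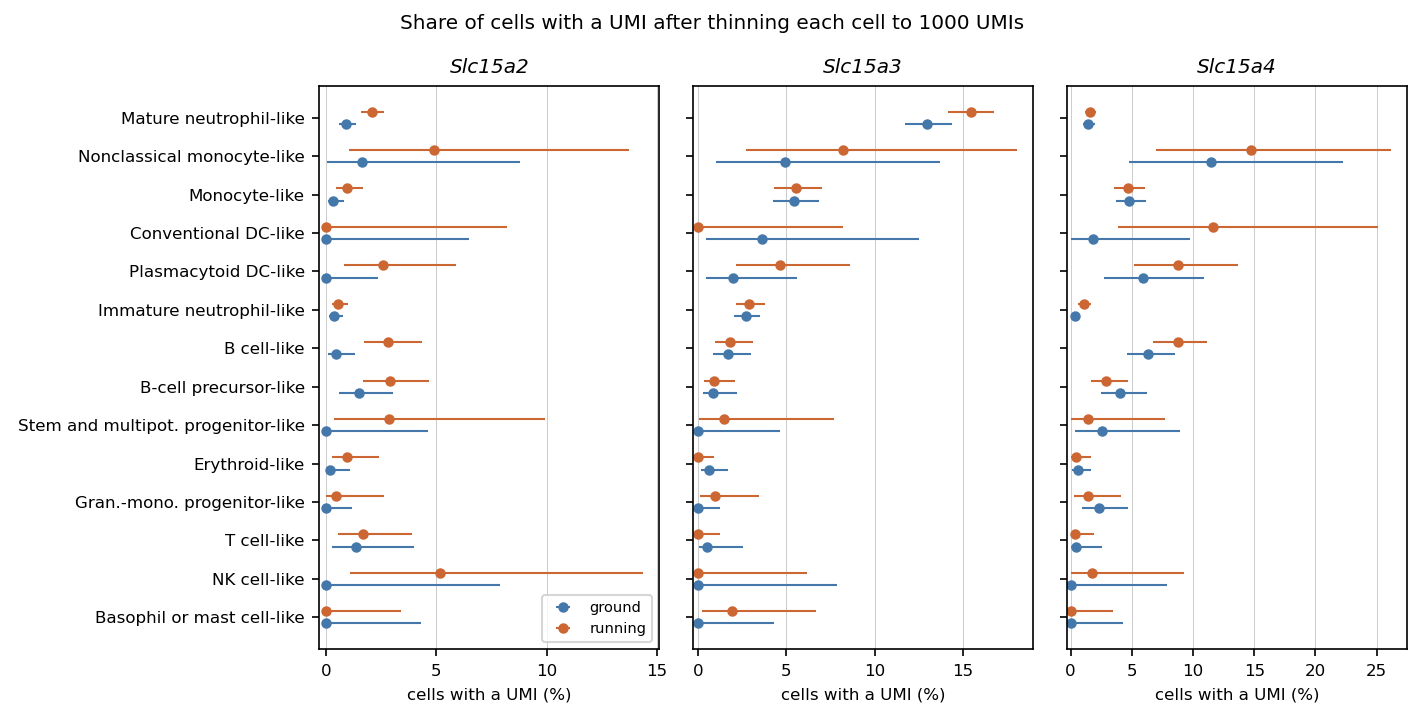
Share of cells with at least 1 UMI of each transporter after every cell was thinned to 1000 UMIs, by class and library, with exact (Clopper-Pearson) 95% intervals. Plasma cell-like, mesenchymal stromal-like and macrophage-like classes are not drawn. At this equal depth 13% and 15.5% of mature neutrophil-like cells had Slc15a3, and 11.5% and 14.8% of nonclassical monocyte-like cells had Slc15a4, while the Slc15a2 shares of all cells were 0.589% and 1.76%.

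Between the libraries Slc15a4 differed little in the classes where it was highest. Its log2 ratio was 0.02 in plasmacytoid dendritic cell-like cells (−0.38 to 0.43), 0.08 in B cell-like cells (−0.23 to 0.40), 0.12 in monocyte-like cells (−0.02 to 0.27) and 0.35 in nonclassical monocyte-like cells (−0.33 to 1.04). No class with 50 or more Slc15a4 UMIs passed 1.5-fold, 0 of 10. In nonclassical monocyte-like cells, where Slc15a4 alone had enough UMIs to be called, 6.46% of all genes were called higher and 7.93% lower. In granulocyte-monocyte progenitor-like cells 0 of 1 was called, with 2.88% of genes called higher and 1.81% lower, and in stem and multipotent progenitor-like cells also 0 of 1, with 5.34% and 5.31%. The intervals lay apart from 0 in 3 classes. Mature neutrophil-like cells were higher in running by 0.42 (0.08 to 0.77), T cell-like cells, with 5 and 27 UMIs, by 1.78 (0.38 to 3.51), and granulocyte-monocyte progenitor-like cells stood lower, at −0.45 (−0.86 to −0.05).

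Among the monocyte-like clusters, shallow cluster 15 aside, Slc15a3 and Slc15a4 were each lowest in cluster 7, whose leading genes include histone genes, with F13a1 and Prtn3. There Slc15a3 stood at 16.6 and 25.9 CPM and Slc15a4 at 26.7 and 32.8 CPM. In cluster 8 they stood at 34.6 and 32.5 CPM and at 41.5 and 41.1 CPM. In cluster 13, led by Vcan, Fn1 and Ccr2, the levels were 67.3 and 76.9 CPM for Slc15a3 and 67.8 and 71.1 CPM for Slc15a4. In small cluster 31, with 37 and 71 cells and Ccr2 and Cx3cr1 among its leading genes, they were 67.1 and 95.1 CPM and 109 and 80.2 CPM. Both transporters thus stood higher in clusters 13 and 31 than in cluster 7, in each library. The name of cluster 7 rests on 1 monocyte marker among its leading genes, tied with 1 of granulocyte-monocyte progenitors.

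Transcripts of Slc15a3 and Slc15a4 were often found in the same monocyte-like cell. Both were seen in 217 ground cells (16.3%) and 239 running cells (19.6%), where the product of their single shares was 14.5% and 17.1%. Slc15a2 and Slc15a3 were seen together in 30 mature neutrophil-like cells of ground (1.18%) and 103 of running (3.41%), beside products of 1.32% and 3.10%. Cells of greater depth yield more of each transcript, so an excess over the product is no measure of shared control.

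Genes of the pathways in which the transporters take part were listed and counted over all cells, against a median log2 ratio of 0.08 for all genes. Of all genes, 6.53% passed the fold upwards and 1.87% downwards, the shares to set beside each list count. Of 14 genes of endosomal Toll-like receptor signalling, 2 passed 1.5-fold upwards and 0 downwards, with a median of 0.09. The genes past the fold were Irf7 and Tlr3, the latter with 31 and 47 UMIs and a log2 ratio of 0.67 (−0.02 to 1.37). Irf7 is also a gene of the type I interferon response list below, and is counted in both. Among list genes with at least 100 UMIs, the rule for naming genes in this and the following lists, the 3 largest ratios were 0.92 for Irf7 (0.84 to 0.998), the transcription factor downstream of these receptors, 0.54 for Tlr7 (0.39 to 0.69), an RNA sensor, and 0.41 for Tlr9 (−0.18 to 1.0), a DNA sensor. Of 14 genes of NOD1 and NOD2 signalling none passed in either direction, and the median was 0.09. Its largest ratios were 0.24 for the kinase gene Ripk2, −0.24 for the adaptor gene Card9 and 0.20 for the ubiquitin ligase gene Birc2.

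The trafficking and nutrient lists lay near the median of all genes, of which 6.53% passed upwards and 1.87% downwards. None of 16 genes of the AP-3 and BLOC complexes, which sort proteins to lysosome-related organelles, passed 1.5-fold, and their median was 0.05, with Ap3s1 at −0.35, Snapin at 0.20 and Bloc1s3 at −0.18. None of 12 lysosomal transporters of amino acids and related solutes passed (median 0.04), with Slc46a3 at 0.28, Slc7a5 at 0.25 and Pqlc2 at −0.24. Of 18 genes of the Ragulator and mTORC1 list, 1 passed upwards (median 0.06), namely Rragb at 0.63, and Rragd stood at 0.53 and Flcn at 0.17. None of 16 measured peptidases passed (median 0.02), with Dpp4 at 0.45, Ctsz at −0.34 and Ctsc at −0.26. Of the histidine and histamine list 6 of 9 genes had enough UMIs and none passed (median −0.06). Hdc, which makes histamine from histidine, stood at −0.22, Hal at −0.15 and Hars2 at 0.10.

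The type I interferon response list stood apart from the others by its counts. Of 26 genes, 16 passed 1.5-fold upwards and 0 downwards, beside 6.53% and 1.87% of all genes. In the list 26 of 26 were above 0, and the median log2 ratio was 0.75. Ifi44 stood at 1.80, Ifit3 at 1.70 and Isg15 at 1.23. By class the median was 1.03 in monocyte-like, 0.86 in immature neutrophil-like, 0.65 in mature neutrophil-like, 0.71 in B cell-like, 0.74 in erythroid-like and 0.27 in plasmacytoid dendritic cell-like cells, in the last from 11 measured genes. In the same classes the log2 ratio of Slc15a2 was 2.06, 1.44, 1.55, 2.14, 1.42 and 1.13. In B-cell precursor-like cells the list median was 0.27 and Slc15a2 stood at 1.70. The same values were 0.54 and 1.74 in granulocyte-monocyte progenitor-like cells and 0.75 and 1.14 in T cell-like cells. For stem and multipotent progenitor-like cells they were 0.72 and 0.996. For macrophage-like cells they were 0.98, from 4 measured genes, and 2.29. These values stand side by side as a description, since the list was chosen with earlier results known.

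The partners of Slc15a4 in Toll-like receptor signalling were unevenly placed in the classes where it was highest. In plasmacytoid dendritic cell-like cells, where Slc15a4 stood at 84.3 and 85.6 CPM, Tlr7 was at 76.9 and 116 CPM (log2 ratio 0.59, 0.21 to 0.99) and Irf7 at 137 and 236 CPM (0.78, 0.50 to 1.07). Irf5 was at 73.2 and 73.5 CPM (0.01, −0.43 to 0.44) and Unc93b1, the chaperone of these receptors, at 548 and 502 CPM (−0.13, −0.28 to 0.03). In B cell-like cells the ratios were 0.98 for Tlr7, 0.91 for Irf7, −0.19 for Irf5 and −0.20 for Unc93b1. In monocyte-like cells they were 0.48, 1.06, −0.06 and −0.03. In nonclassical monocyte-like cells, where Slc15a4 was highest, Tlr7 had 18 and 38 UMIs (1.05, 0.21 to 1.95), Irf7 12 and 37 (1.60, 0.63 to 2.67), Irf5 65 and 53 (−0.32, −0.87 to 0.23) and Unc93b1 50 and 59 (0.21, −0.35 to 0.79). Tlr7 and Irf7 were thus higher in running in these 4 classes with intervals above 0. Tlr9 stood at 0.07 (−1.27 to 1.48) in plasmacytoid dendritic cell-like cells, with 9 and 13 UMIs. In B cell-like cells Tlr9 stood at −0.13 (−1.28 to 1.03), with 14 and 15 UMIs.

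Of the NOD partners of these transporters, Nod1 had ratios of opposite sign in the neutrophil and monocyte classes, with both intervals excluding 0. In mature neutrophil-like cells Nod1 had 194 and 268 UMIs (17.8 and 24.4 CPM), a log2 ratio of 0.45 (0.18 to 0.73). In monocyte-like cells it had 318 and 223 UMIs (17.5 and 14.0 CPM), a ratio of −0.32 (−0.57 to −0.07). The intervals of the other partners included 0 in both classes. Nod2 was at 0.39 (−0.16 to 0.96) and −0.12 (−0.69 to 0.44), and Ripk2 at 0.62 (−0.24 to 1.51) and 0.15 (−0.14 to 0.43), in mature neutrophil-like and monocyte-like cells.

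The genes most like each transporter in pattern were taken by Pearson's r of log2(CPM + 10) over 26 points, the 13 classes with at least 50 cells per library in both libraries, among 11612 genes. The points share libraries, cells and free RNA, so r is a description. For Slc15a3 they were Rbm47 (0.93), Tpd52 (0.92), the Toll-like receptor gene Tlr2 (0.92), the copper transporter gene Atp7a (0.91) and Myadm (0.91), and 5 of 5 were also named when 1 CPM was added. For Slc15a4 they were Inpp5f (0.93), the Toll-like receptor homologue gene Cd180 (0.93), Cacna1d (0.89), Atf6 (0.89) and Rnase6 (0.88), with 2 of 5 named again. For Slc15a2 they were Epas1 (0.73), Plpp3 (0.72), Iigp1 (0.71), Ifit2 (0.71) and the cholesterol exporter gene Abca1 (0.71), with 2 of 5 named again. Between the transporters r was 0.41 for Slc15a2 with Slc15a3, 0.15 for Slc15a2 with Slc15a4 and 0.41 for Slc15a3 with Slc15a4, each below that of their 5 nearest genes.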

How the data were processed

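The authors deposited raw UMI counts for each gene and barcode, made with Cell Ranger 5.0.0 as the file headers state. The submitters' processing notes name STAR and mm10, and further upstream filters are not given in the sources used here. Barcodes were kept with at least 500 UMIs, 250 genes and at most 10% mitochondrial UMIs, which removed 253 ground and 293 running barcodes. Scrublet in scanpy 1.11.5 then called and removed 243 (2.73%) and 100 (1.09%) doublets. Both libraries were clustered jointly (2000 variable genes, 30 components, 15 neighbours, Leiden resolution 1). After their leading genes were seen, 2 clusters that mixed types were split at resolution 0.3. Each cluster was named for the type with the most markers, at least 1, among its 10 leading genes. Of that type's markers 3 or more had to be detected in at least 10% of the cells. Tied types were separated by the mean log2 fold of their markers. Levels are summed counts scaled to CPM of the total of the library, class or cluster. Intervals (exact Poisson, Clopper-Pearson, conditional binomial) cover counting error only, and no test was run. Genes named are the transporters, the 5 most similar in pattern, the 3 largest ratios per list with 100 or more UMIs, and signalling partners. Members and lists were chosen with earlier results of these data known. In counts simulated for monocyte-like cells, running over ground (10732 genes, 195 changed 2-fold), 95.6% of intervals covered the simulated ratio and 100% of changed genes passed the fold, as did 0.921% of unchanged genes. Alternatives are given in the closing section.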

Additional observations from a re-analysis of the deposited data

Results flagged for a closer look

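The class ratios of Slc15a4 lay on both sides of 0, with intervals that excluded it. The log2 ratio, running over ground, was 0.42 in mature neutrophil-like cells (127 and 172 UMIs) and 1.78 in T cell-like cells (5 and 27 UMIs), and −0.45 in granulocyte-monocyte progenitor-like cells (148 and 81 UMIs). The T cell-like class was compared through its running count alone, and its thinned shares were 0.459% and 0.339%. With 1 library per group, the difference between these classes was not tested.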

How the results depend on the processing

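Of the class and all-cell log2 ratios of the transporters, 410 values under the alternatives stayed within the main value's counting interval, 6 moved outside it and 2 changed sign for a called ratio. Of the CPM levels 934 stayed within their interval and 80 moved, 40 of 108 when haemoglobin, granule, ribosomal and mitochondrial genes were left out of the totals and 23 of 108 with the mean of CPM over cells. Thinning to 1000 UMIs moved 88 of 99 shares of cells, which depend on depth by construction. Slc15a2 kept its direction in all classes compared and ranged from 1.61 to 1.81 over all cells. For Slc15a3 in B cell-like cells the log2 ratio was −0.032 with doublets kept, 0.070 at Leiden resolution 0.5 and −0.089 without cluster 22. Taking the mean of CPM over cells gave Slc15a3 −1.66 in erythroid-like, −0.57 in granulocyte-monocyte progenitor-like and 0.028 in monocyte-like cells. Relative to the median of all genes, Slc15a3 stood at 0.25 over all cells and 0.18 in mature neutrophil-like cells. Leaving out the 22 shared barcodes, also added after seeing the data, moved no ratio by more than 0.0873. Among the lists, the endosomal Toll-like receptor genes passing upwards fell from 2 to 1 at 200 UMIs and to 0 at 2-fold, the Ragulator gene from 1 to 0 under both, and the interferon genes to 6 at 2-fold. Causes of these shifts were not tested beyond the alternative's own construction. Low UMI numbers limit Slc15a2 most, with 8 ground UMIs or fewer in 3 of the classes compared. No paired analysis was possible because each group had 1 library.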
